A study of Mus musculus with 12 samples.

Results

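Kupffer cells, the macrophages that live in the sinusoids of the liver, were followed through 10 marker genes (Clec4f, Vsig4, Timd4, Cd5l, Marco, Adgre1, Csf1r, Cd163, Folr2 and Cd68), taken by gene name from the 55487 genes of the deposited table. All 10 were measured, and all 10 passed the filter on low counts that left 15197 genes for testing. The livers came from male Kunming mice, an outbred stock, which were 7 to 8 weeks old when purchased. The Control group received normal saline, the MTP group received triptolide (TP, a diterpenoid that blocks transcription) at 300 μg/kg, and the MTP+CR group received TP at 300 μg/kg together with crocin (CR, a carotenoid of saffron) at 100 mg/kg. All were given by gavage for 7 days, with 4 livers and 1 mRNA library per liver in each group. No genotype was altered, all mice were of 1 stock and sex, and whole liver was sequenced, so that Kupffer cell RNA was read within the RNA of all liver cells. In such bulk samples, fewer Kupffer cells and less RNA of a gene per cell cannot be told apart.

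Kupffer cells clear bacteria, dying cells, aged red cells and complement-coated particles from portal blood, and they hold this position through receptors for each kind of cargo. They depend on signals through the receptor Csf1r, whose ligands are Csf1 and Il34, and in mice the resident cells are recognised by Clec4f and Timd4, whereas Adgre1 (F4/80), Csf1r and Cd68 are shared with other macrophages and with monocytes. Vsig4 binds complement C3 fragments, Marco binds bacteria, Timd4 binds phosphatidylserine on dying cells, and Cd163 takes up complexes of haemoglobin and haptoglobin.

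One marker passed the test. Adgre1 was lower in the MTP+CR group than in the Control group, whereas the other 9 markers did not pass in any of the 3 comparisons. This was 1 of 10 markers, where 1.00% of all tested genes were called lower and 0.329% higher in MTP+CR against Control. Calls required more than a 1.5-fold difference and an adjusted p below 0.05 by edgeR's quasi-likelihood test, which was fitted once over the 12 livers, with Benjamini-Hochberg adjustment over all 15197 genes.

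RefSeq promoters (build GRCm38.p6, 250 bases before to 50 bases after a transcript start) were matched by symbol for 8 of the 10 markers, with 9 promoters in all. Those of Vsig4, Clec4f and Cd5l are shown because these genes stand in the pairs of markers that varied most alike over the livers (Vsig4 with Csf1r and Clec4f with Cd5l, described below). Capitals mark the purine box GAGGAA, a PU.1-type site that extends the core GGAA of ETS factors, or its reverse complement TTCCTC. The core GGAA alone was not marked or counted, and it also occurs in the Clec4f window. The Vsig4 window lies at chrX:96293389-96293688 (minus strand), the Clec4f window at chr6:83656067-83656366 (minus strand) and the Cd5l window at chr3:87357631-87357930 (plus strand).
Vsig4: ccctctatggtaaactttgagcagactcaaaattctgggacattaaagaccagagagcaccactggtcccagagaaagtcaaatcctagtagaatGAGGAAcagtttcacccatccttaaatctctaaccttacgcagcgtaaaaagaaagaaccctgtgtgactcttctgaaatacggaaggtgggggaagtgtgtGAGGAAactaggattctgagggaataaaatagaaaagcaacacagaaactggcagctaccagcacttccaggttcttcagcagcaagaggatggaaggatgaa
Clec4f: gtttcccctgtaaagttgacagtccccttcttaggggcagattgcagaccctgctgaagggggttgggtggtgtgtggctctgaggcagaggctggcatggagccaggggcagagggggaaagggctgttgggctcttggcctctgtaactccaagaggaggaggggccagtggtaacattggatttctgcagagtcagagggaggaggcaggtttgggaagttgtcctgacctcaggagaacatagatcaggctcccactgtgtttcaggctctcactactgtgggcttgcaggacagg
Cd5l: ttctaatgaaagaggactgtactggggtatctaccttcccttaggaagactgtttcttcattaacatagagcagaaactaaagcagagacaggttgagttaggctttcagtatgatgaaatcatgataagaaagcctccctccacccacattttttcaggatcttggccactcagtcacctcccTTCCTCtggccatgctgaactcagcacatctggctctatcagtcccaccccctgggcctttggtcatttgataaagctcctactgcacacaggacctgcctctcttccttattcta
The box was present on either strand in 4 of the 9 marker promoters, those of Vsig4, Cd5l, Marco and Cd68, against 28.3% of 32851 promoters of the same length. The letters TATAAA, searched on both strands, were in 0 of the 9 and in 13.6% of all promoters. These 2 motifs cannot overlap by their letters on either strand, and a match is a string of letters, not a measured binding site.

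The libraries held 15509226 to 18430566 counts each, and the markers were read from 67 counts (Cd163 in MTP+CR 2, exact Poisson 95% interval 51.9 to 85.1, counting error only) up to 5766 counts (Cd5l in Control 4). TMM factors, which set the scale between libraries, were 0.836 to 0.952 in Control, 1.07 to 1.52 in MTP and 0.823 to 0.989 in MTP+CR livers. Over all genes, 397 were called higher and 423 lower in MTP against Control, and 903 and 989 in MTP+CR against MTP. With total-count scaling these became 2610 and 321, and 413 and 4133, and the all-gene median of the log2 fold change moved from 0.02 to 0.50 and from −0.03 to −0.54. The direction of a marker between MTP and either other group therefore depends on the scale where it is near these shifts, while MTP+CR against Control moved little, with 50 called higher and 152 lower under TMM and 38 and 108 under total counts. The liver MTP+CR 2 stood apart in the markers, with the lowest value of its group for 6 of the 10 and the highest for Adgre1. Some values are given with and without it. For the fold changes of Cd163 and Folr2, only ranges over each liver left out in turn are given.

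Per length, Cd5l was the most abundant marker in Control livers, with 137 ± 40.1 FPKM (deposited values, mean ± SD, n = 4), and Clec4f was next with 84.0 ± 15.8 FPKM. The ranges of these neighbours overlapped. Vsig4 followed at 42.8 ± 8.73 FPKM, with every Control liver below every Clec4f value and above every value of Csf1r (16.3 ± 2.82 FPKM). Adgre1 (12.3 ± 2.74), Marco (11.5 ± 7.87), Timd4 (10.8 ± 2.75), Cd68 (7.95 ± 2.20), Folr2 (7.60 ± 2.05) and Cd163 (3.99 ± 3.17 FPKM) came after it, and no neighbours in this part of the order were separate in range. Cd5l, Clec4f and Vsig4 kept ranks 1 to 3 in all 3 groups. Adgre1 was rank 5 in Control, 6 in MTP (9.88 ± 1.14 FPKM) and 9 in MTP+CR livers (4.02 ± 2.16 FPKM), where only Cd163 (2.63 ± 1.36 FPKM) lay below it. Clec4f and Cd5l together with the other 8 markers summed to 720 to 1145 CPM in Control, 495 to 750 in MTP and 408 to 879 in MTP+CR livers (CPM, counts scaled to the library size with the TMM factor, here and below). Without Clec4f and Cd5l the sum was 313 to 467 CPM in Control, 230 to 348 in MTP and 189 to 288 in MTP+CR livers. Every MTP+CR liver was then below every Control liver.

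**Figure D1:**
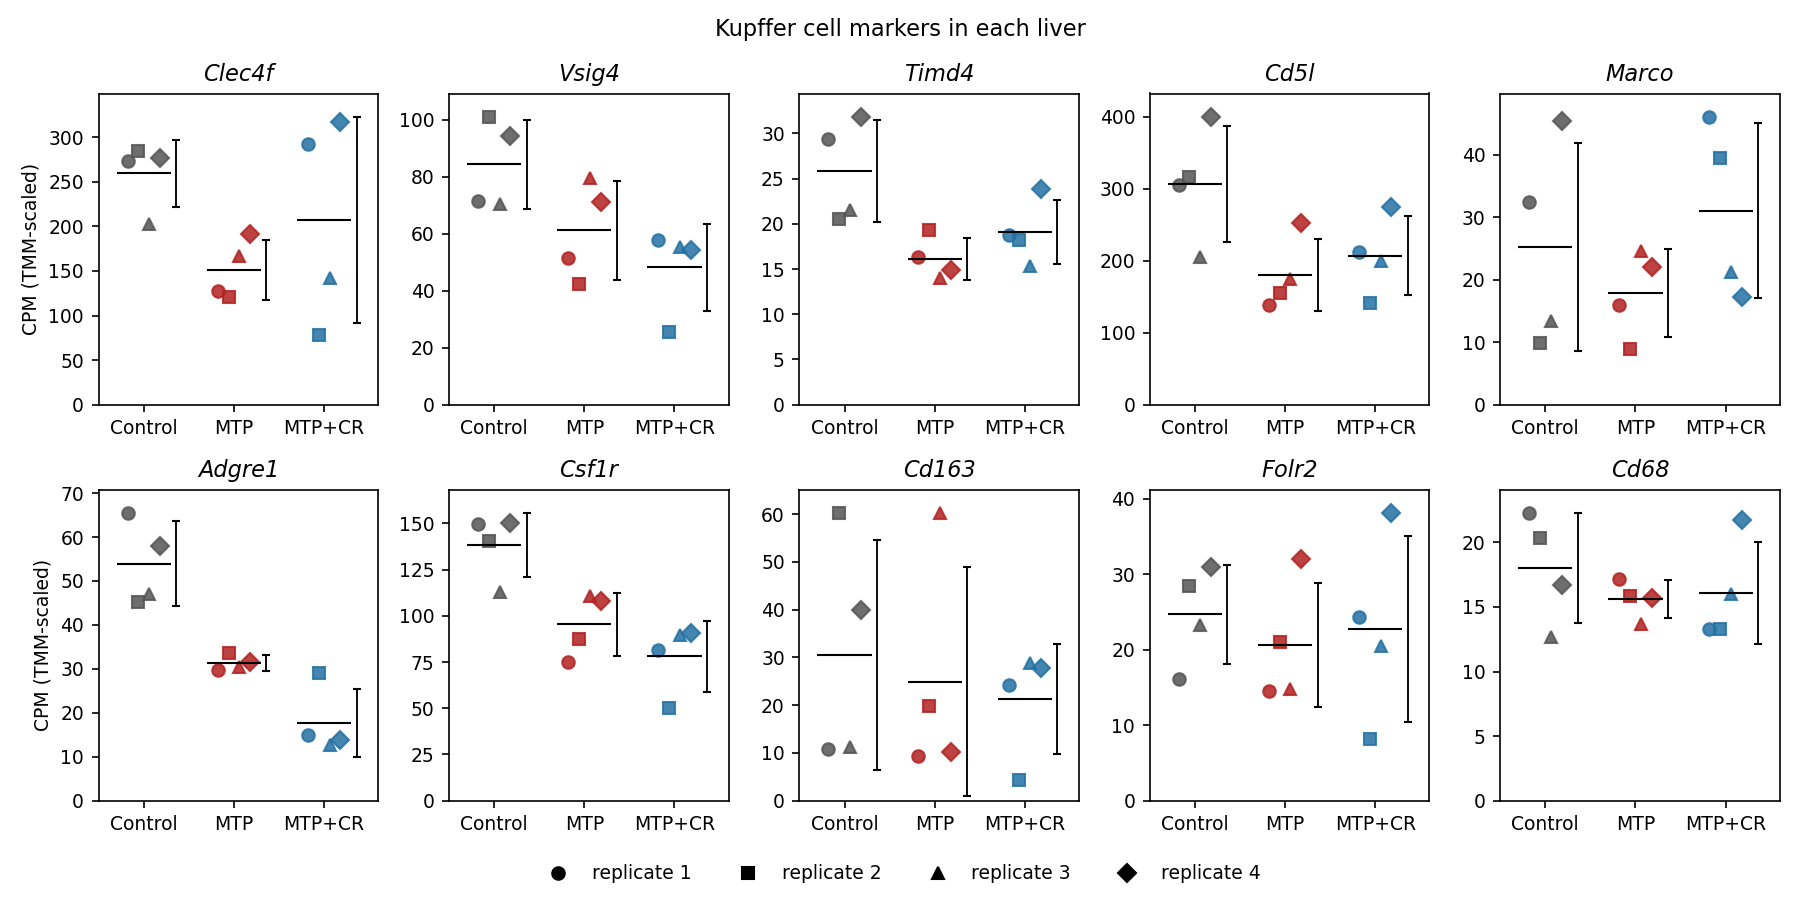
Level of each marker in every liver, in TMM-scaled CPM on a linear axis from 0, with 1 point per liver (shape gives the replicate number), the mean as a line and the SD as a bar, n = 4 per group. Adgre1 runs from 45.1 to 65.6 CPM in Control, 29.7 to 33.7 in MTP and 12.6 to 29.2 in MTP+CR livers with no overlap of the groups on this scale (in FPKM, Control and MTP livers overlap), while Cd163 and Marco spread widely within each group.

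Adgre1 encodes F4/80, an adhesion G protein-coupled receptor long used to recognise mouse macrophages (chromosome 17, 57358691 to 57483527 of mm10, plus strand). Its level was 65.6, 45.1, 47.0 and 58.0 CPM in Control livers 1 to 4, 29.7, 33.7, 30.3 and 31.6 CPM in MTP livers, and 14.9, 29.2, 12.6 and 13.9 CPM in MTP+CR livers. On this scale the 3 groups did not overlap, with Control highest and MTP+CR lowest. In deposited FPKM, which carry no TMM factor, Control livers had 9.87 to 15.7 and MTP livers 8.52 to 11.3 and overlapped, while MTP+CR livers had 2.74 to 7.25 and stayed below both. In CPM, MTP+CR 2 stood just under the MTP range while the other 3 MTP+CR livers were at 14.9 CPM or less. Against Control, Adgre1 fell in the MTP+CR group by 1.61 on the log2 scale (SE 0.27, 95% interval −2.18 to −1.04, adjusted p = 0.0108 by edgeR's quasi-likelihood test), which is 3.06-fold lower. It was called in all 26 alternative analyses of this comparison, with log2 fold changes of −1.97 to −1.47 and adjusted p of at most 0.0428. Those with no fold threshold and with a fold above 2 reuse the main fit, so they could not drop a 3.06-fold call. Without MTP+CR 2 the value was −1.97 (adjusted p = 0.00294 by edgeR's quasi-likelihood test). Between MTP+CR and MTP the log2 fold change was −0.83 (SE 0.26, 95% interval −1.39 to −0.27, adjusted p = 0.0530), so that it did not pass, and it passed without MTP+CR 2 (−1.18, adjusted p = 0.0136). Between MTP and Control it was −0.78 (SE 0.26, 95% interval −1.34 to −0.22, adjusted p = 0.0924) and also did not pass, although it did so without MTP+CR 2 (−0.79, adjusted p = 0.0326), a liver that enters this comparison through the shared estimate of spread. Total-count scaling made the difference between MTP and Control −0.32 (adjusted p = 0.461) and log2(FPKM + 1) made it −0.28. With TMM scaling, each of the 3 comparisons of Adgre1 gave p = 0.0286 in a two-sided exact permutation test, the smallest p that 4 against 4 livers can give.

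Clec4f is a C-type lectin of mouse Kupffer cells (chromosome 6, 83644542 to 83656187, minus strand). It was measured at 273, 284, 203 and 277 CPM in Control livers, 127, 120, 167 and 192 CPM in MTP livers, and 293, 77.6, 142 and 317 CPM in MTP+CR livers. Every MTP liver lay below every Control liver, which did not hold in deposited FPKM (49.2 to 77.8 in MTP and 60.4 to 92.6 in Control), but the MTP+CR group held both the lowest (MTP+CR 2) and the 2 highest (MTP+CR 1 and 4) of the 12 values. In FPKM, MTP+CR 2 (27.3) was still lowest and MTP+CR 4 (92.8) highest. There MTP+CR 1 (90.3) lay below Control 1, 2 and 4 (92.6, 92.1 and 90.9). The log2 fold change was −0.77 for MTP against Control (SE 0.37, 95% interval −1.57 to 0.02, adjusted p = 0.232 by edgeR's quasi-likelihood test) and −0.32 for MTP+CR against Control (SE 0.37, 95% interval −1.12 to 0.47, adjusted p = 0.626). For MTP+CR against MTP it was 0.45 (SE 0.37, 95% interval −0.34 to 1.25, adjusted p = 0.406), and it was −0.08 under total-count scaling. Without MTP+CR 2 the difference of MTP+CR from Control was −0.05. An interval from −1.12 to 0.47 leaves room for more than a 1.5-fold lower level, so equal levels were not shown.

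Timd4, the phosphatidylserine receptor of resident Kupffer cells (chromosome 11, 46810800 to 46844332, plus strand), was at 29.3, 20.5, 21.6 and 31.9 CPM in Control, 16.3, 19.3, 14.1 and 14.9 CPM in MTP, and 18.8, 18.3, 15.4 and 23.9 CPM in MTP+CR livers. MTP livers lay below all Control livers and overlapped MTP+CR livers, which in turn overlapped Control. In deposited FPKM, MTP livers (7.35 to 11.3) overlapped Control livers (8.29 to 13.5) as well. The log2 fold change of MTP against Control was −0.68 (SE 0.22, 95% interval −1.15 to −0.21, adjusted p = 0.0828 by edgeR's quasi-likelihood test). DESeq2 and limma-voom, which were alternatives, called it (adjusted p = 0.0434 and 0.0367). MTP+CR differed from MTP by 0.24 (adjusted p = 0.452), which was −0.27 under total-count scaling, and from Control by −0.44 (adjusted p = 0.253).

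Cd5l encodes a protein that macrophages secrete into the blood, also called AIM (chromosome 3, 87357881 to 87371073, plus strand). Control livers had 305, 317, 204 and 400 CPM, MTP livers 138, 156, 175 and 252 CPM, and MTP+CR livers 213, 142, 200 and 274 CPM. Control 3 lay among the treated livers, and the other 3 Control livers lay above all treated livers. The log2 fold change was −0.77 for MTP against Control (SE 0.28, 95% interval −1.38 to −0.15, adjusted p = 0.128 by edgeR's quasi-likelihood test), and it passed only without MTP 4 (adjusted p = 0.0382). It was −0.57 for MTP+CR against Control (adjusted p = 0.258) and 0.20 for MTP+CR against MTP (adjusted p = 0.645), or −0.30 under total-count scaling.

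Vsig4, the complement receptor of the immunoglobulin superfamily (chromosome X, 96247203 to 96293438, minus strand), had 71.4, 101, 70.6 and 94.2 CPM in Control, 51.4, 42.4, 79.7 and 71.1 CPM in MTP, and 57.6, 25.5, 55.5 and 54.4 CPM in MTP+CR livers. Every MTP+CR liver was below every Control liver, with 3 livers close together and MTP+CR 2 far under them. MTP livers spread across both other groups. MTP+CR differed from Control by −0.80 on the log2 scale (SE 0.29, 95% interval −1.42 to −0.19, adjusted p = 0.135 by edgeR's quasi-likelihood test), and by −0.59 without MTP+CR 2. Against Control, MTP had a log2 fold change of −0.46 (adjusted p = 0.365), which was 0.01 under total-count scaling. Against MTP, MTP+CR had −0.34 (adjusted p = 0.413), and total-count scaling made this −0.87, which passed the test (adjusted p = 0.0335). C3, whose fragments Vsig4 binds, is made by hepatocytes and fell by 1.67 in MTP against Control (adjusted p = 0.0464), from 12892 ± 4816 to 4061 ± 1851 CPM.

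Csf1r, the receptor on which macrophages depend for survival (chromosome 18, 61100598 to 61132149, plus strand), was at 150, 140, 113 and 150 CPM in Control, 75.2, 87.4, 111 and 108 CPM in MTP, and 81.7, 50.2, 89.9 and 90.9 CPM in MTP+CR livers. With TMM scaling both treated groups lay below Control in every liver and overlapped each other. In deposited FPKM, MTP livers (up to 18.7) overlapped Control livers (12.2 to 18.4), and MTP+CR livers (6.42 to 10.0) lay below both. The log2 fold change was −0.54 for MTP against Control (SE 0.23, adjusted p = 0.183 by edgeR's quasi-likelihood test), or −0.08 under total-count scaling. It was −0.82 for MTP+CR against Control (SE 0.23, 95% interval −1.32 to −0.33, adjusted p = 0.0857), and DESeq2 and limma-voom called it (adjusted p = 0.0213 and 0.0434). For MTP+CR against MTP it was −0.29 (adjusted p = 0.394) and −0.80 under total-count scaling (adjusted p = 0.0202). Csf1r overlaps Hmgxb3 on the other strand, which reached 728 counts in a library, and the counting is not stated to use strand, so reads of the shared stretch cannot be told apart. Its ligands did not pass in any comparison. Csf1 was at 12.4 ± 2.55, 13.2 ± 1.81 and 9.09 ± 2.10 CPM in Control, MTP and MTP+CR livers, and Il34 at 1.24 ± 0.493, 2.19 ± 0.744 and 2.12 ± 0.661 CPM.

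Marco, the scavenger receptor for bacteria (chromosome 1, 120474538 to 120505024, minus strand), was the marker whose log2 fold change against Control was positive in the MTP+CR group. Its level was 32.4, 9.82, 13.3 and 45.3 CPM in Control, 16.0, 8.86, 24.5 and 22.1 CPM in MTP, and 46.1, 39.5, 21.3 and 17.3 CPM in MTP+CR livers. The groups overlapped, with Control livers in a high and a low pair. The log2 fold change was 0.30 for MTP+CR against Control (SE 0.48, adjusted p = 0.740 by edgeR's quasi-likelihood test), 0.80 for MTP+CR against MTP (SE 0.48, adjusted p = 0.257) and −0.50 for MTP against Control (SE 0.48, adjusted p = 0.595), the last of which turned to 0.11 on log2(FPKM + 1).

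Cd163, the haemoglobin scavenger receptor (chromosome 6, 124304656 to 124330527, plus strand), varied more between livers of 1 group than between groups. It was at 10.7, 60.2, 11.3 and 39.9 CPM in Control, 9.39, 19.7, 60.3 and 10.3 CPM in MTP, and 24.2, 4.37, 28.9 and 27.7 CPM in MTP+CR livers. Control 2 and MTP 3 had nearly the same high value, and MTP+CR 2 had the lowest. The standard errors of its log2 fold changes were all 0.71, the largest of the 10 markers, and the values were −0.29, −0.23 and −0.52 for MTP against Control, MTP+CR against MTP and MTP+CR against Control (adjusted p = 0.859, 0.844 and 0.694 by edgeR's quasi-likelihood test). The first turned to 0.19 under total-count scaling. Hp, the gene of haptoglobin, whose complex with haemoglobin Cd163 binds, did not pass either, with 5685 ± 2874, 3249 ± 1960 and 6235 ± 2504 CPM in the 3 groups.

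Folr2 (folate receptor beta, chromosome 7, 101839988 to 101857194, minus strand) ran from 16.1 to 31.0 CPM in Control, 14.6 to 32.1 in MTP and 8.22 to 38.2 in MTP+CR livers. Cd68 (a lysosomal glycoprotein of macrophages, chromosome 11, 69664213 to 69666153, minus strand) ran from 12.7 to 22.3, 13.7 to 17.2 and 13.3 to 21.7 CPM. The groups overlapped for both. Their log2 fold changes against Control were −0.26 and −0.21 in MTP, where total-count scaling gave 0.17 and 0.27, and −0.12 and −0.16 in MTP+CR livers. For MTP+CR against MTP they were 0.14 and 0.04, or −0.35 and −0.49 under total-count scaling. Folr2 overlaps the antisense gene Gm10602, which reached 59 counts in a library.

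MTP against Control asks how the markers differed between livers given TP and livers given saline. The paper describes a TP stock in DMSO that was diluted in saline. No livers given only the vehicle or only CR were sequenced, so TP and its vehicle cannot be told apart. All 10 markers had a negative log2 fold change under TMM and 0 of 10 were called by edgeR's quasi-likelihood test, with 2.78% of all tested genes called lower and 2.61% higher. Under total-count scaling 6 were negative and 4 positive. The median over the markers was −0.52, beside 0.02 over all genes, and it was −0.06 beside 0.50 under total-count scaling, so the distance between markers and all genes was −0.54 and −0.56. A change of scale shifts markers and all genes nearly alike, so this distance could hardly move with it. Over all alternatives the distance ran from −0.69 (without Control 3) to −0.30 (on log2(FPKM + 1)). In 4 markers (Clec4f, Timd4, Adgre1 and Csf1r) every MTP liver was below every Control liver, which held for 7.71% of all genes, and in 0 was every MTP liver above (6.96% of all genes). Under total-count scaling all 10 markers overlapped, so that 0 were below in every liver, beside 2.68% of all genes. Timd4, Cd5l, Adgre1 and Csf1r had an unadjusted p under 0.05 with lower values, as 11.2% of all genes did. Among alternatives, DESeq2 called 2 markers and limma-voom 2, in both cases Timd4 and Adgre1.

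MTP+CR against MTP asks what was different when CR was given with TP. By edgeR's quasi-likelihood test 0 of 10 markers were called, with 6.51% of all genes called lower and 5.94% higher, and Adgre1 was the marker with an unadjusted p under 0.05. The log2 fold change was negative for Vsig4, Adgre1, Csf1r and Cd163 and positive for the other 6, of which Marco alone stayed positive under total-count scaling. The median was 0.09, beside −0.03 over all genes, and it was −0.42 beside −0.54 under total-count scaling. It was −0.14 with the trend over gene length removed and −0.17 without MTP+CR 4. Without MTP+CR 2 it was 0.20, beside −0.04 over all genes, with 7 positive and 3 negative. Adgre1 was the marker in which every MTP+CR liver was below every MTP liver, which held for 7.99% of all genes, and in 0 was every MTP+CR liver above (6.92% of all genes). Under total-count scaling this held for 2 markers, Adgre1 and Csf1r, and for 19.4% of all genes. Adgre1 was called in 8 of the 26 alternatives, DESeq2 among them, and total-count scaling called Vsig4, Adgre1 and Csf1r lower.

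MTP+CR against Control sets the combined treatment beside saline. Adgre1 was the called marker, and 9 of 10 log2 fold changes were negative, with Marco as the exception. The median was −0.48, beside −0.02 over all genes, and without MTP+CR 2 it was −0.30, beside −0.03, with 8 negative and 2 positive (Marco and Folr2). In 3 markers (Vsig4, Adgre1 and Csf1r) every MTP+CR liver was below every Control liver, which held for 8.15% of all genes, and in 0 was every MTP+CR liver above (7.37% of all genes). Total-count scaling gave 3 as well, beside 7.02% of all genes. The same 3 had an unadjusted p under 0.05, as 10.8% of all genes did with lower values. The comparisons share livers in pairs, since Control, MTP and MTP+CR livers each enter 2 of them, so their values are not independent.

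**Figure D2:**
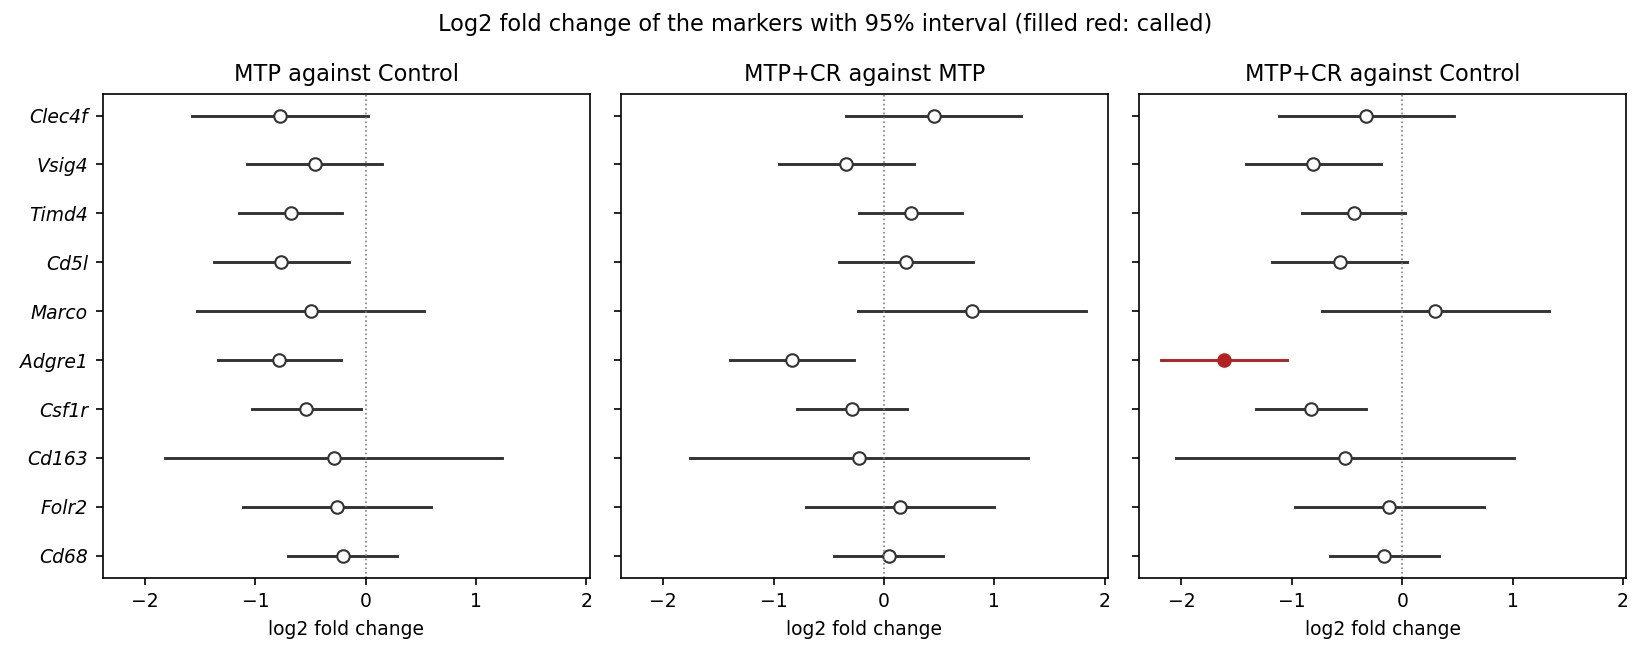
Log2 fold change of each marker in the 3 comparisons (points) with its 95% interval (lines), from edgeR's quasi-likelihood fit with TMM scaling. Only Adgre1 in MTP+CR against Control, at −1.61, is filled as called, and all 10 points lie left of 0 in MTP against Control, where total-count scaling leaves 6 there.

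Adgre1 varied relative to Clec4f more in the MTP+CR livers than in the other groups. Ratios between genes of the same library do not depend on the scale between libraries, and the log2 ratio of Adgre1 to Clec4f in FPKM was −2.56, −3.16, −2.61 and −2.76 in Control livers 1 to 4 and −2.60, −2.34, −2.96 and −3.10 in MTP livers. The MTP+CR livers had −4.80, −1.91, −3.99 and −5.02. The Control and MTP livers lay within a narrow band, while MTP+CR 2 was above this band and the other 3 MTP+CR livers were well below it. The ratio of Adgre1 to Timd4 was −0.01 to 0.29 in Control, −0.07 to 0.24 in MTP and −1.65 to −0.20 in MTP+CR livers, where MTP+CR 2 held the highest value and was still below all 8 other livers. Of the 9 ratios of Adgre1 to another marker, 2 (to Timd4 and to Marco) had every MTP+CR liver below all Control and MTP livers, and 8 had this in the 3 MTP+CR livers without MTP+CR 2. The ratio of Cd5l to Clec4f, both abundant markers, was 0.47 to 0.99 in Control, 0.53 to 0.86 in MTP and 0.00 to 1.33 in MTP+CR livers, so that MTP+CR livers spread on both sides of the others. These ratios were chosen after the values were seen and carry no test.

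**Figure D3:**
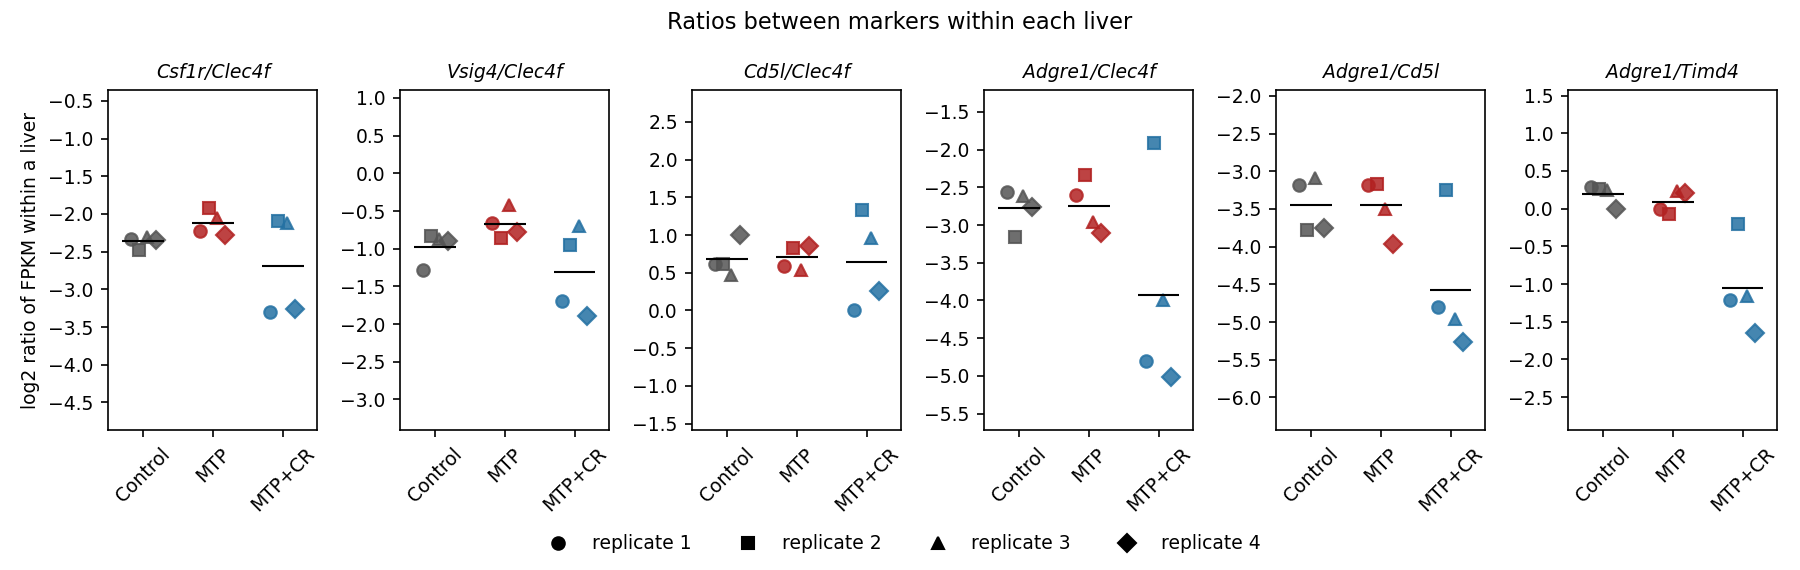
Log2 ratio of the FPKM of 2 markers within each liver for 6 pairs, with 1 point per liver, shape by replicate number and a line at the mean, on axes of equal height. Adgre1/Clec4f runs from −3.16 to −2.34 in Control and MTP livers and is −4.80, −1.91, −3.99 and −5.02 in the MTP+CR livers.

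Over the 12 livers, 37 of the 45 pairs of markers had a Pearson's r of log2 CPM above 0, and 19 had one above 0.5. Without MTP+CR 2 these were 40 and 13 over 11 livers. Vsig4 and Csf1r were the closest pair (r = 0.92, and 0.85 without MTP+CR 2), followed by Clec4f and Cd5l (r = 0.84 and 0.82). Clec4f had r = 0.75 with Vsig4 and 0.72 with Csf1r, which were 0.54 and 0.52 without that liver. Adgre1 was nearest to Csf1r (r = 0.58, and 0.77 without MTP+CR 2) and had r = 0.10 with Clec4f. Marco had r between −0.23 and 0.22 with each other marker, a range that was −0.12 to 0.43 without MTP+CR 2, with Clec4f at its upper end. These values describe 12 livers that share the group differences and the scaling of their libraries, and genes are not independent. As deviations from the group means, Adgre1 and Vsig4 had r = −0.74, a value to which MTP+CR 2 contributes with the highest Adgre1 and the lowest Vsig4 of its group.

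**Figure D4:**
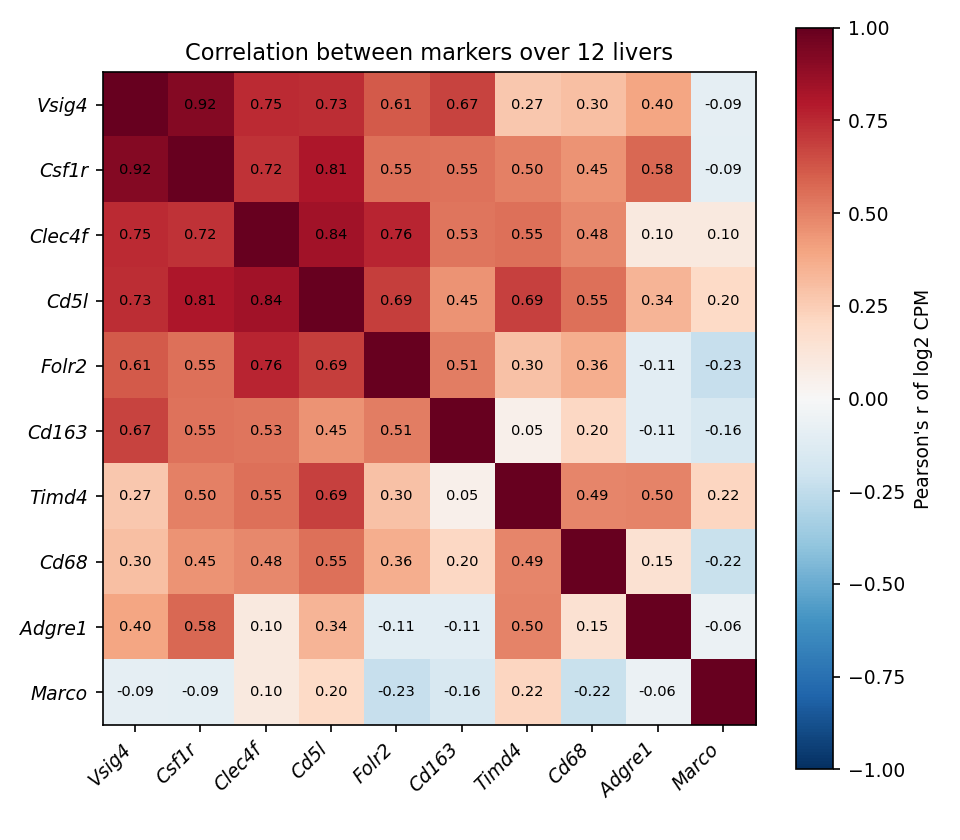
Pearson's r of log2 CPM between each pair of markers over the 12 livers, on a colour scale from −1 to 1. Vsig4, Csf1r, Clec4f and Cd5l form the block of high values (0.72 to 0.92), which reaches down to 0.52 without MTP+CR 2. The row of Marco stays between −0.23 and 0.22, or −0.12 and 0.43 without that liver.

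Outside the 10, the genes closest to the mean of the standardised markers over the 12 livers were Ptgs1 (r = 0.93), which encodes cyclooxygenase 1, and Fpr1 (r = 0.90), a receptor for formyl peptides of bacteria. Cysltr2, St3gal6, Igkv1-117, Ephb4, Adcy4 and Fgd2 followed with r of 0.81 to 0.88, where Igkv1-117 belongs to a family of near-identical immunoglobulin segments and its count is uncertain. Closest to Clec4f was C1qb (r = 0.89), a chain of complement C1q that macrophages make, followed by Gm2026, Adamts13, Fcna and Il3ra (r = 0.85 to 0.86). C1qb was at 93.3 ± 22.0 CPM in Control, 62.0 ± 24.3 in MTP and 93.4 ± 38.8 in MTP+CR livers. These genes were chosen for their likeness over these livers, so their levels support nothing about the markers.

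Of 18 other genes of Kupffer cells, 1 was called lower in MTP against Control, beside 2.78% of all tested genes. In MTP+CR against MTP, 1 was called higher and 2 lower, beside 5.94% and 6.51% of all tested genes. Slc40a1, the iron exporter ferroportin, fell by 1.04 in MTP against Control (adjusted p = 0.0374 by edgeR's quasi-likelihood test), from 246 ± 42.5 to 120 ± 20.4 CPM, with every MTP liver below every Control liver, and 17 were not called. Under total-count scaling 0 of the 18 were called lower and 1 higher. In MTP+CR against MTP, Ccl24, a chemokine, rose by 1.13 (adjusted p = 0.0427), while Mertk, a receptor for dying cells, fell from 32.5 ± 6.68 to 16.2 ± 3.57 CPM (adjusted p = 0.0219) and Il18bp, which binds interleukin 18, fell by 1.18 (adjusted p = 0.0345). For MTP+CR against Control 0 of 18 were called, beside 1.00% of all tested genes called lower. At an unadjusted p under 0.05 in edgeR's test 5 had lower values, while DESeq2 called 2 lower. The medians were −0.25, 0.07 and −0.20. Of 11 macrophage transcription factors, Maf fell in MTP+CR livers, from 68.7 ± 9.45 CPM in Control and 56.3 ± 7.28 in MTP to 28.4 ± 7.43 CPM (log2 fold changes −1.27 and −0.99, adjusted p = 0.0148 and 0.0208). Spi1 (PU.1) was at 15.8 ± 4.07, 17.6 ± 4.22 and 13.8 ± 3.00 CPM in Control, MTP and MTP+CR and was not called, and Id3 and Nr1h3 (LXRα), factors of Kupffer cell identity, were not called either. Of 15 genes of ligands and niche signals, C3 was the called gene in MTP against Control, and Smad4, a mediator of TGF-β signals, in MTP+CR against MTP, where it fell by 0.75 (adjusted p = 0.0435).

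Of 15 genes of macrophages in general, 5 fell in MTP+CR against Control and 0 rose, by edgeR's quasi-likelihood test. Of all tested genes, 1.00% were called lower and 0.329% higher. Mrc1, the mannose receptor, went from 102 ± 20.6 to 38.1 ± 5.21 CPM (log2 fold change −1.43, adjusted p = 0.00774), and Msr1, a scavenger receptor of class A, from 49.8 ± 10.6 to 19.4 ± 3.06 CPM (−1.36, adjusted p = 0.0105). Cybb, a subunit of the phagocyte oxidase, fell by 1.37 (adjusted p = 0.0107), and Ptprc (CD45), found on all leukocytes, fell by 1.31 (adjusted p = 0.0292). Against MTP, 5 fell as well, among them these same 4 genes, where Msr1 fell by 1.36 and Cybb fell by 1.24 on the log2 scale. In that comparison 6.51% of all tested genes were called lower. MTP against Control gave 0 called genes of the 15, 1 with an unadjusted p under 0.05 and 1 called by DESeq2. Other genes of the list differed: Tyrobp and Fcer1g, adaptors of myeloid receptors, were at 18.9 ± 5.19 and 19.3 ± 1.88 CPM in Control and at 18.1 ± 6.57 and 22.5 ± 8.61 CPM in MTP+CR livers and were not called. The summed level of the 15 genes was 665 to 1100 CPM in Control, 701 to 955 in MTP and 414 to 542 in MTP+CR livers. Mrc1 and Maf are also expressed by the endothelial cells of liver sinusoids.

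Markers of other cell types moved in the same livers. Of 20 genes of liver endothelial cells, 11 fell in MTP+CR against Control and 14 against MTP, with medians of −1.18 and −0.98, and 0 were called in MTP against Control (2 with an unadjusted p under 0.05 and 0 by DESeq2). Of all tested genes, 1.00% were called lower in MTP+CR against Control and 6.51% against MTP. Without MTP+CR 2 the endothelial calls were 9 and 13. Kdr, the receptor for VEGF, was at 88.1 ± 5.91 CPM in Control, 88.0 ± 18.9 in MTP and 22.8 ± 3.36 CPM in MTP+CR livers. The summed endothelial level was 1019 to 1137 CPM in Control, 864 to 1077 in MTP and 331 to 520 in MTP+CR livers. The MTP+CR livers thus lay apart from all others, and MTP+CR 2 was within its group at 392 CPM. Under total-count scaling the sum was 851 to 1048, 1084 to 1407 and 286 to 451 CPM. Every MTP liver was then above every Control liver, while the MTP+CR livers stayed below all others. The part of these endothelial values in the level of Adgre1 was not tested. Of 9 genes of stellate cells, Dcn and Rgs5 fell in MTP+CR against MTP, and the sum of the list was 382 to 489, 373 to 541 and 218 to 393 CPM in Control, MTP and MTP+CR livers. Of 14 hepatocyte genes tested, 3 fell in MTP against Control, beside 2.78% of all tested genes. In MTP+CR against MTP 6 rose, beside 5.94% of all tested genes. The medians of the hepatocyte genes were −1.42 and 1.29. At an unadjusted p under 0.05 by edgeR's quasi-likelihood test, 11 were lower in the first comparison and 10 higher in the second. The sum of the 14 genes was 126236 to 192008 CPM in Control, 42865 to 75988 in MTP and 96102 to 143919 in MTP+CR livers.

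Of 15 tested genes of monocytes and recruited macrophages, 5 rose in MTP against Control and 8 fell in MTP+CR against MTP, among them Ccr2, a chemokine receptor of monocytes, at 6.62 ± 2.22, 16.0 ± 5.36 and 4.12 ± 0.740 CPM in the 3 groups. Of 14 tested genes of neutrophils and their precursors, 4 rose and 5 fell in the same comparisons. Of all tested genes, 2.61% were called higher and 2.78% lower in MTP against Control, and 6.51% lower in MTP+CR against MTP. Csf3r, the receptor for the growth factor of neutrophils, and Prtn3, a protease of their granules, were not called in MTP against Control, with 6.09 ± 2.04 and 23.3 ± 32.5 CPM in Control and 5.53 ± 2.03 and 19.0 ± 16.5 CPM in MTP livers. The summed monocyte level was 33.2 to 94.7 CPM in Control, 589, 116, 88.2 and 157 in MTP livers 1 to 4, and 33.2 to 55.6 in MTP+CR livers. On this TMM scale MTP 1 was highest by far, while MTP 3 lay below Control 4. Under total-count scaling the monocyte sum was 27.7 to 87.3 CPM in Control and 115 to 892 in MTP livers. Every MTP liver was then above every Control liver. With TMM scaling the summed neutrophil level of MTP 3 (32.4 CPM) was within the Control range of 20.7 to 226 CPM. Without MTP 1, 0 of the 15 monocyte genes (8 at an unadjusted p under 0.05 and higher) and 1 of the 14 neutrophil genes were called in MTP against Control by edgeR's quasi-likelihood test. Of 10 tested genes of dendritic cells and MHC class II, Cd74 and the class II chains H2-Aa and H2-Eb1 fell in MTP against Control. H2-Aa was at 92.7 ± 38.1, 28.2 ± 7.34 and 56.2 ± 26.9 CPM in Control, MTP and MTP+CR livers. Of 11 tested genes of lymphocytes and 5 of cholangiocytes, 0 were called in the 3 comparisons by edgeR's quasi-likelihood test, with 3 and 1 at an unadjusted p under 0.05 in MTP against Control, where DESeq2 called 2 and 0. No gene of these lists that was found by symbol, tested or not, was at 0 in every library. Adgre1, Csf1r and Cd68 are also expressed by monocytes, and the part of monocyte RNA in their levels was not tested.

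**Figure D5:**
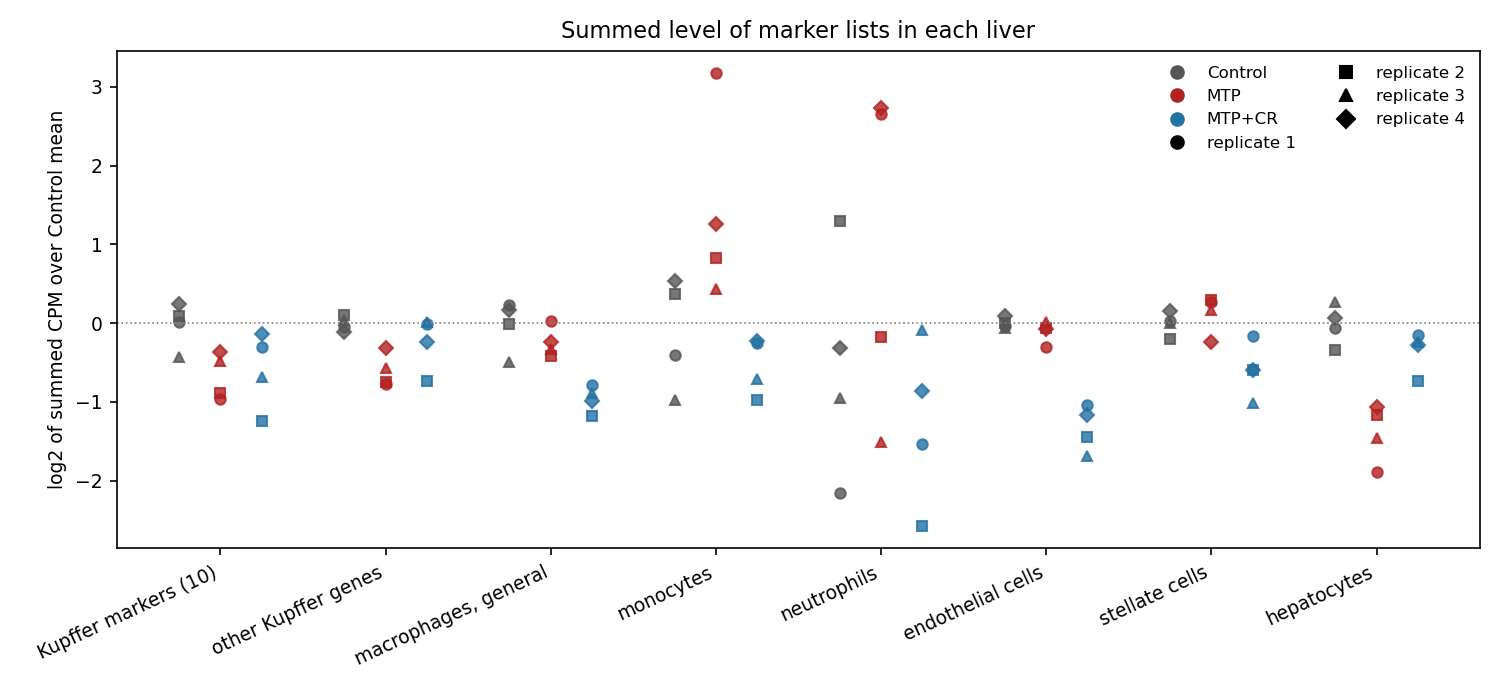
Summed CPM of 8 lists of cell type markers in each liver, as the log2 of its ratio to the mean of the Control livers, with 1 point per liver, colour by group and shape by replicate number. The 4 MTP+CR livers lie below all others for endothelial cells (331 to 520 CPM against 864 to 1137) and for macrophages in general (414 to 542 against 665 to 1100), but overlap Control livers for the Kupffer markers (408 to 879 against 720 to 1145). Without Clec4f and Cd5l the Kupffer marker sum, not drawn here, did not overlap (189 to 288 CPM in MTP+CR against 313 to 467 in Control).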

How the data were processed

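Liver mRNA libraries of 12 mice were analysed, 4 per group. After trimming, the authors aligned reads by Hisat2 and used Stringtie to obtain fragment counts of genes. The deposited values are whole-number counts and FPKM, which divide a count by gene length and library total, with no TMM factor. The labels name Bowtie 0.12.2 and mm10, and the annotation release is not given in the sources used here. Coordinates came from GENCODE vM21, by identifier.

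In R 4.3.3, edgeR 4.0.16 tested the deposited counts after filterByExpr (count minimum 10, total minimum 15) and TMM, in 1 quasi-likelihood fit of the 3 groups with Benjamini-Hochberg adjustment over 15197 genes. The thresholds were 0.05 for the adjusted p and 1.5 for the fold. The procedure was tested on simulated data. Whether replicates shared cages or batches is not given, so p-values measure the spread between these mice.

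The alternatives were DESeq2 1.42.0, limma-voom with quality weights (limma 3.58.1), RLE, upper-quartile and total-count scaling, no filter, 1 CPM in 4 libraries, only the compared groups, no fold threshold, a fold above 2, a replicate block, log2(FPKM + 1), log2(FPKM + 0.1), removal of the trend over gene length (lowess span 0.3) and each library left out in turn. The markers and gene lists were chosen with earlier results of these data known. Named are all 10 markers, up to 4 called genes per list and comparison (or the 2 with the smallest p), the genes most like the markers and ligands of the receptors. Tyrobp, Fcer1g, Spi1, Id3, Nr1h3, Csf3r and Prtn3 were named after their values were seen. The list gene Tf was not matched by that symbol, and 14 of 15 hepatocyte genes were used.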

Additional observations from a re-analysis of the deposited data

Results flagged for a closer look

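In each group of 4 livers, the level of each marker and the sum of the 10 was searched for a liver whose gap to its nearest neighbour took more of the range of the group than Dixon's 95% critical value allows, in 33 groups in all. Chance gives about 1 in 20 groups, and 3 values were found. Clec4f in Control 3 was low, at 203 CPM beside 273 to 284 in the other Control livers. Vsig4 in MTP+CR 2 was low, at 25.5 CPM beside 54.4 to 57.6, and Adgre1 in MTP+CR 2 was high, at 29.2 CPM beside 12.6 to 14.9, so that the same liver left its group in opposite directions for 2 markers.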

How the results depend on the processing

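Of 780 values of single markers under the alternatives, 714 kept both their direction and their side of the threshold, 23 passed the test where they had not and 43 changed direction, none of these a called value. The call of Adgre1 in MTP+CR against Control held in all 26. The alternatives with no fold threshold and with a fold above 2 reuse the main fit. No direction could change in them, and the call of Adgre1 could not fail. Calls over all genes moved most. In MTP against Control they went from 820 to 1764 with DESeq2, 2931 with total-count scaling, 2662 with limma-voom, 2103 for log2(FPKM + 1) values and 2417 for log2(FPKM + 0.1) values, and leaving out 1 liver gave 244 to 2009. For MTP+CR against MTP they went from 1892 to 3319, 4546, 3228, 3376 and 4491 under the same settings, to 1143 with no filter and 320 with only the 2 compared groups, and leaving out 1 liver gave 261 to 4009. In MTP+CR against Control they went from 202 to 1158 with DESeq2, 625 with limma-voom, 116 with no filter, 105 with only the 2 compared groups and 79 on log2(FPKM + 1), and leaving out 1 liver gave 63 to 370. The cause was not tested.

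Markers called in MTP against Control went from 0 to 2 with DESeq2, 2 with limma-voom and 1 with only the compared groups (Adgre1), and leaving out 1 liver gave 0 to 1. In MTP+CR against MTP they went from 0 to 1 (Adgre1) with DESeq2, limma-voom, 1 CPM in 4 libraries and removal of the length trend, and to 3 under total-count scaling, log2(FPKM + 1) and log2(FPKM + 0.1), while leaving out 1 liver gave 0 to 1. In MTP+CR against Control they went from 1 to 2 with DESeq2 and limma-voom, both times through Csf1r.

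Directions changed as follows. In MTP against Control, total-count scaling gave Vsig4 0.0068, Cd163 0.19, Folr2 0.17 and Cd68 0.27, log2(FPKM + 1) gave Marco 0.11, Cd163 0.087, Folr2 0.15 and Cd68 0.25, log2(FPKM + 0.1) gave Marco 0.13, Cd163 0.13, Folr2 0.17 and Cd68 0.28, and limma-voom gave Cd163 0.20. Between MTP+CR and MTP, total-count scaling gave Clec4f −0.083, Timd4 −0.27, Cd5l −0.30, Folr2 −0.35 and Cd68 −0.49, log2(FPKM + 1) gave Clec4f −0.23, Timd4 −0.24, Cd5l −0.30, Folr2 −0.40 and Cd68 −0.43, and log2(FPKM + 0.1) gave Clec4f −0.24, Timd4 −0.26, Cd5l −0.30, Folr2 −0.47 and Cd68 −0.48. Removing the length trend gave Timd4 −0.067, Cd5l −0.10, Folr2 −0.12 and Cd68 −0.27, and limma-voom gave Cd68 −0.027. Leaving out 1 liver gave Cd163 −1.22 to 0.27 in MTP against Control, Cd163 −0.49 to 0.69, Folr2 −0.22 to 0.45 and Cd68 −0.13 to 0.13 in MTP+CR against MTP, and Cd163 −0.80 to 0.047 and Folr2 −0.48 to 0.16 in MTP+CR against Control.

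Whether the replicate numbers pair the livers is not given. Deviations of same-numbered livers from their group means had correlations of −0.18 to 0.19. Differently numbered livers were not set beside them, so these values cannot decide it. When a replicate block was added to the fit, 539, 1428 and 66 genes and 0, 0 and 1 markers were called in MTP against Control, MTP+CR against MTP and MTP+CR against Control, and Cd163 in MTP+CR against MTP was 0.079. The lowest count of a marker in a library was 67, for Cd163 in MTP+CR 2. In mean count per group Cd163 was above Cd68 in each group, with 310 and 235 counts in MTP+CR livers. Counts are not scaled to gene length, which was 6955 bases for Cd163 and 2067 for Cd68. Per length the mean of Cd163 was below that of Cd68 in each group, with 2.63 and 6.82 FPKM in MTP+CR livers. In MTP livers the median count of Cd163 was also lower, at 291.5 beside 305.5 for Cd68.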
